A study of Homo sapiens with 12 samples.

Results

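The 9 genes CCND1, CCND2, CCND3, MAF, NSD2, FGFR3, ITGB7, MYC and NUAK1 were followed in JJN3 multiple myeloma cells after inhibition of type I protein arginine methyltransferases (PRMTs) or loss of PRMT1. They are the D-type cyclins, the oncogenes that chromosomal translocations activate in myeloma and genes linked to MAF. They were chosen by name, as 9 of the 59276 gene symbols listed for each sample, and all 9 were found. RNA-seq was done on 12 samples in 4 groups of 3 replicates. In the inhibitor arm, JJN3 cells were given DMSO as vehicle (DMSO) or 10 µM MS023, an inhibitor of type I PRMTs, for 3 days (MS023). In the knockout arm, JJN3 cells carried lentiviral Cas9 with an mCherry reporter, and a vector with a puromycin resistance gene and a guide that doxycycline switches on. The guide was a control (isgCtrl) or iPRMT1_1, which targets PRMT1 (PRMT1-KO), and the cells were kept in doxycycline for 3 days. Both knockout arm groups therefore share Cas9, selection and doxycycline, which DMSO and MS023 cells lack. The knockout rests on a single guide in a selected pool of cells, and all 12 samples come from a single cell line.

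In multiple myeloma, a cancer of plasma cells, translocations often place an oncogene under the strong enhancers of the immunoglobulin heavy chain locus. The recurrent partners are CCND1, CCND3, MAF, the neighbouring pair FGFR3 and NSD2, and, mostly as a later event, MYC, and nearly all myelomas express a D-type cyclin above the level of normal plasma cells. D-type cyclins bind CDK4 and CDK6 and start the phosphorylation of RB1 that opens the way into S phase, and MAF is known to drive CCND2 and ITGB7. JJN3 belongs to the lines with a MAF translocation.

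Before the members, the label of the cells was checked. All 10 plasma cell markers had a mean above 1 TPM (a measure of transcript abundance corrected for transcript length) in DMSO and MS023 cells, 9 had in isgCtrl cells and 8 in PRMT1-KO cells. Of 11 markers of other blood cells, 1, the erythroid HBB, had a mean above 1 TPM. The summed level of these 11 markers was 1.67 to 6.98 TPM over the 12 samples, against 2766 to 12130 TPM for the plasma cell markers. PRMT1 mRNA in PRMT1-KO cells was 35.4% of its isgCtrl level, at 304 ± 4.34 against 859.8 ± 9.15 TPM (SD, n = 3 each). The mRNA level does not measure the protein left. The paper's own check was a western blot, from which it reports efficient deletion of PRMT1. The T cell marker CD3D was listed at 0 in all samples of MS023, isgCtrl and PRMT1-KO. Pearson's r across genes was 0.993 to 0.996 within groups and 0.982 to 0.985 between MS023 and DMSO samples. It was 0.994 to 0.995 for PRMT1-KO with isgCtrl samples and 0.987 to 0.990 for isgCtrl with DMSO samples.

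Each member is given in TPM, a per-length scale on which levels of different genes can be set side by side. Tests were done with limma on log2(TPM+1), the scale of the deposited values, among genes with a group mean above 1 on that scale. A gene was called when its Benjamini-Hochberg adjusted p was under 0.05 and its log2 fold change was above 0.48 in size. A fold change on this scale understates the change of genes with low TPM. With 3 samples against 3, the smallest p that a two-sided exact permutation test can give is 0.1, and every member whose groups did not overlap had that p.

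With MS023, CCND2, ITGB7 and CCND1 rose, NSD2 fell, and MAF, the oncogene that is rearranged in this line, had nearly the same mean level with and without the inhibitor. In PRMT1-KO cells 0 members were called, 5 had an unadjusted p under 0.05 in limma, and 1 of these, ITGB7, was 1.29-fold higher than in isgCtrl with an adjusted p under 0.05. Of the 8 members tested with MS023 4 were called, where 30.9% of all 12903 genes tested were called. Among them 3 were higher and 1 was lower, where 11.6% and 19.3% of all genes were called in these directions. In PRMT1-KO 7 members were tested, where 0.781% of all 12285 genes tested were called. These are bulk samples, in which a change in the share of some cells and a change of RNA per cell cannot be told apart.

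**Figure D1:**
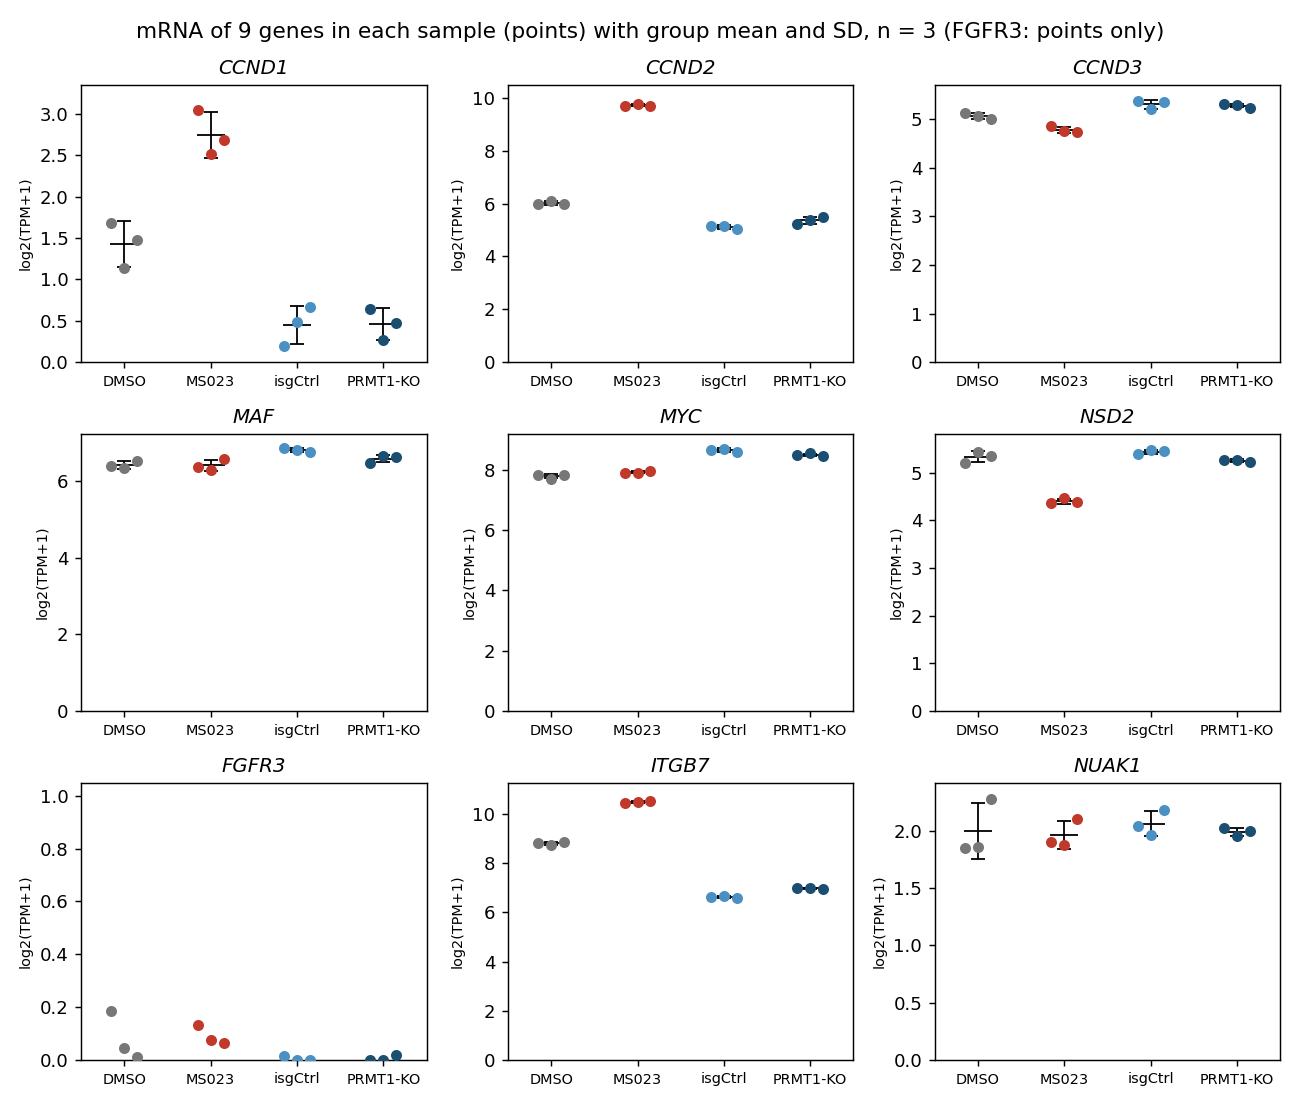
Level of each of the 9 members in every sample, as log2(TPM+1) on the vertical axis, for DMSO, MS023, isgCtrl and PRMT1-KO (3 replicates each, points, with the group mean and SD except for FGFR3), on axes that start at 0 and differ between genes. CCND2 and ITGB7 are highest in the 3 MS023 samples, MYC is highest in the 3 isgCtrl samples, and FGFR3 lies below 0.2 in all 12.

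The D-type cyclins are 3 related proteins that can each pair with CDK4 or CDK6, and CCND2 was the one that moved most. CCND2 lies on chromosome 12 of GRCh38 (chr12:4269771-4305353, plus strand). All 9 members are protein-coding in the annotation. CCND2 was at 61.5, 67.4 and 61.5 TPM in DMSO replicates 1 to 3 and at 833, 859 and 827 TPM in MS023 replicates 1 to 3. In the knockout arm it was at 34.7, 34.6 and 31.6 TPM in isgCtrl and at 36.4, 40.6 and 44.3 TPM in PRMT1-KO. All 4 groups were separate, with MS023 highest, then DMSO, then PRMT1-KO, then isgCtrl.

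MS023 raised CCND2 13.2-fold by mean TPM, from 63.5 ± 3.42 to 840 ± 17.1 TPM (SD, n = 3 each), or on the log2 scale 3.71 with a 95% interval of 3.54 to 3.87 (limma, Benjamini-Hochberg adjusted p = 1.1e-05). By size of rise it ranked 5 among the 12903 genes tested. In PRMT1-KO cells CCND2 was 1.20-fold its isgCtrl level, a log2 difference of 0.26 with an interval of 0.04 to 0.47, and was not called (limma, Benjamini-Hochberg adjusted p = 0.210). With neither inhibitor nor knockout in these groups, isgCtrl cells held 53% of the CCND2 level of DMSO cells (log2 difference -0.90, limma, Benjamini-Hochberg adjusted p = 8.9e-04).

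CCND1, the cyclin that the most common cyclin translocation of myeloma activates, was the lowest of the D-type cyclins in every sample. It lies on chromosome 11 (chr11:69641156-69654474, plus strand). CCND1 was at 2.19, 1.19 and 1.78 TPM in DMSO and at 7.26, 4.69 and 5.39 TPM with MS023. In isgCtrl it was at 0.150, 0.403 and 0.581 TPM, and in PRMT1-KO at 0.565, 0.202 and 0.386 TPM. The MS023 samples lay above the DMSO samples, both lay above the knockout arm, and isgCtrl and PRMT1-KO overlapped.

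CCND1 rose 3.36-fold by mean TPM with MS023, and its log2 fold change was 1.32 with a 95% interval of 0.85 to 1.78 (limma, Benjamini-Hochberg adjusted p = 0.00249). Even so, its mean with MS023 was 5.78 ± 1.33 TPM (SD, n = 3), against 26.6 ± 1.20 TPM (SD, n = 3) for CCND3 in the same samples. It was under the filter on low values in PRMT1-KO and isgCtrl and was not tested there. The log2 difference of isgCtrl from DMSO was -0.98 (limma, Benjamini-Hochberg adjusted p = 0.0101), and CCND1 passed the filter in that comparison only through its DMSO level. With a pseudocount of 0.1 in place of 1 this difference was -2.01, since the level is near the pseudocount.

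CCND3, on chromosome 6 (chr6:41934934-42050357, minus strand), is the D-type cyclin that germinal centre B cells depend on. CCND3 was at 33.8, 32.7 and 31.2 TPM in DMSO and at 27.9, 26.2 and 25.6 TPM with MS023. In isgCtrl it was at 40.5, 35.8 and 39.7 TPM and in PRMT1-KO at 38.7, 38.1 and 36.8 TPM. Every MS023 sample was below every DMSO sample, and isgCtrl and PRMT1-KO overlapped.

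With MS023 the CCND3 level was 81.6% of that in DMSO (log2 difference -0.28, interval -0.45 to -0.12, limma, Benjamini-Hochberg adjusted p = 0.0156), which is under the fold threshold. The difference is also not past an adjusted p of 0.05 when samples are rescaled, at -0.17 under median-ratio scaling and -0.16 under quantile normalization (limma, Benjamini-Hochberg adjusted p = 0.109 and 0.111). In PRMT1-KO the log2 difference of CCND3 was -0.03, with an interval of -0.19 to 0.13, and its sign was the other way under both rescalings, at 0.0081 and 0.0056.

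Added together, the D-type cyclins came to 97.8 ± 3.43 TPM in DMSO and 872 ± 16.3 TPM in MS023 (SD, n = 3 each). The sum was 72.7 ± 2.36 TPM in isgCtrl and 78.7 ± 2.91 TPM in PRMT1-KO (SD, n = 3 each). CCND2 made up 64.9% of the sum in DMSO, 96.3% with MS023, 46.3% in isgCtrl and 51.3% in PRMT1-KO. CCND3 made up 33.3%, 3.05%, 53.2% and 48.2% in the same order of groups. CCND3 was thus the more abundant cyclin by mean share in isgCtrl, and CCND2 in the other groups. In PRMT1-KO the shares were close, at 51.3 ± 3.15% for CCND2 and 48.2 ± 3.00% for CCND3 (SD, n = 3 each). In its replicate 1 CCND3 was the larger, at 51.1% against 48.1%. These sums and shares are descriptions with no test.

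**Figure D2:**
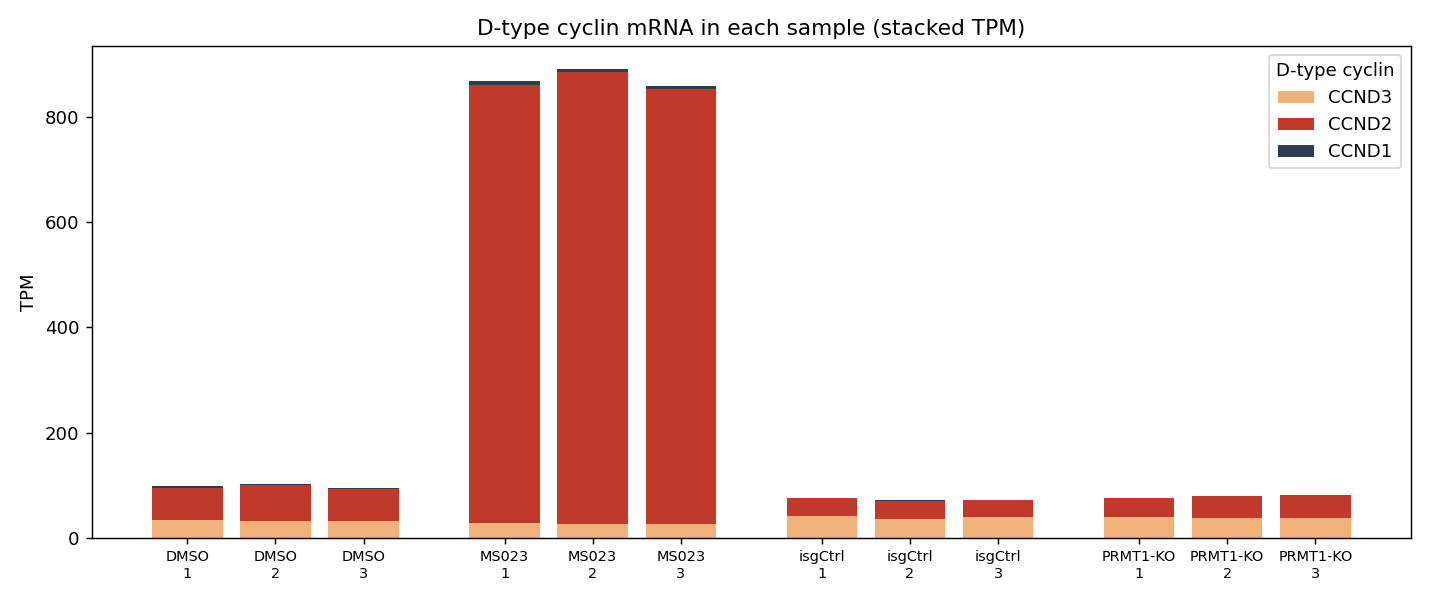
Level of CCND3, CCND2 and CCND1 in TPM, stacked in a bar for each of the 12 samples on a linear axis from 0. The stack reaches 858 to 890.2 TPM in the MS023 samples, nearly all of it CCND2, and 70.9 to 101 TPM in all other samples.

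The partners and inhibitors of the D-type cyclins moved in both directions with MS023. Of 18 genes in this list 3 rose and 7 fell, where 11.6% and 19.3% of all genes tested did. Their median log2 fold change was -0.40 against -0.11 over all genes tested. The genes that rose were CDK inhibitors: CDKN2B (1.63), CDKN1C (1.23) and CDKN1A (1.12). CDKN1A, the p53 target that encodes p21, went from 77.8 ± 2.12 to 170.7 ± 0.343 TPM (SD, n = 3 each). The largest fall was also of a CDK inhibitor: CDKN2C went from 276 ± 7.86 to 74.4 ± 3.53 TPM (SD, n = 3 each), or on the log2 scale -1.88. E2F2, a transcription factor that RB1 restrains, fell by 1.35 on the log2 scale.

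CDK4 and CDK6, the kinases that D-type cyclins bind, were not called with MS023. CDK4 was at 174 ± 7.14 TPM in DMSO and 167 ± 5.76 TPM with MS023, and CDK6 was at 13.2 ± 1.79 and 13.9 ± 1.47 TPM (SD, n = 3 each). CDK2, the kinase of the E-type cyclins, was called lower, at 41.3 ± 2.26 TPM in DMSO and 21.0 ± 1.23 TPM with MS023 (SD, n = 3 each; log2 difference -0.95). RB1, the protein that these kinases phosphorylate, went from 42.7 ± 3.01 to 18.1 ± 1.07 TPM with MS023 (SD, n = 3 each), a log2 change of -1.20 (limma, Benjamini-Hochberg adjusted p = 1.9e-04). CDK2, CDK4, CDK6 and RB1 were named after their values were seen. In PRMT1-KO cells 0 of the 18 genes were called, and 5 had an unadjusted p under 0.05 in limma, where 18.6% of all genes tested had. Against DMSO, isgCtrl cells had CDKN2A (0.70) and CCNE1 (0.49) called higher and 0 of the list called lower, and these calls depended on the scaling. Under median-ratio scaling 1 was called higher and 2 lower (CDKN1A at -0.55 and CDKN2D at -0.52), and under quantile normalization 1 was higher and 1 lower (CDKN1A at -0.52). CCNE1 was not called under either.

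MAF encodes a basic leucine zipper (bZIP) transcription factor and lies on chromosome 16 (chr16:79585843-79600737, minus strand). MAF was at 82.4, 79.7 and 90.9 TPM in DMSO and at 80.9, 77.7 and 94.6 TPM with MS023. In isgCtrl it was at 115, 111 and 107 TPM and in PRMT1-KO at 87.8, 100.1 and 97.9 TPM. DMSO and MS023 samples were interleaved, and every PRMT1-KO sample lay below every isgCtrl sample.

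The log2 difference of MAF with MS023 was -0.002 with a 95% interval of -0.25 to 0.24 (limma, Benjamini-Hochberg adjusted p = 0.987), and it was 0.12 under median-ratio scaling and 0.10 under quantile normalization, where its sign was the other way. In PRMT1-KO the MAF level was 85.9% of isgCtrl, a log2 difference of -0.22 with an interval of -0.39 to -0.05 that was not called (limma, Benjamini-Hochberg adjusted p = 0.192). The DMSO samples overlapped the PRMT1-KO samples and lay below isgCtrl. The difference of isgCtrl from DMSO was 0.39 (limma, Benjamini-Hochberg adjusted p = 0.00987), under the fold threshold.

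MAFA, which encodes another large MAF protein, was nearly silent, at 0.319 ± 0.055 TPM in DMSO (SD, n = 3). Of 12 bZIP genes in a list that holds MAF itself, 9 were tested with MS023, MAF among them. Of the 9, 3 rose and 0 fell, where 11.6% and 19.3% of all genes tested did. The median log2 fold change of the 9 was 0.27 against -0.11 over all genes tested. MAFF, a small MAF protein without an activation domain, had the largest rise, from 5.51 ± 0.655 to 22.1 ± 0.498 TPM (SD, n = 3 each; log2 fold change 1.83). NFE2L1 (0.58) and MAFG (0.56) were the others. Of these 9, 0 were called in PRMT1-KO. In limma 2, of which MAF is 1, had an unadjusted p under 0.05, where 18.6% of all genes tested had. Against DMSO, BACH2 (0.81) and MAFK (0.62) were higher in isgCtrl.

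Of 12 genes linked to MAF in myeloma, 8 were tested with MS023, 5 rose and 0 fell, where 11.6% and 19.3% of all genes tested did. Their median log2 fold change was 0.90 against -0.11 over all genes. This list holds CCND2, ITGB7 and NUAK1, so it is not apart from the members. The other risers were RND3 (1.90), CCR1 (1.07), a chemokine receptor on myeloma cells, and ARID5A (0.73), an RNA-binding protein that stabilizes cytokine mRNAs. RND3 went from 4.50 ± 1.31 to 19.2 ± 1.02 TPM and CCR1 from 23.9 ± 1.46 to 51.2 ± 3.53 TPM (SD, n = 3 each). In PRMT1-KO 0 of 8 were called and 4 had an unadjusted p under 0.05 in limma, where 18.6% of all genes tested had. CCND2 and ITGB7 are among these 4. The median log2 difference of the 8 was 0.13 against -0.04 over all genes. In isgCtrl against DMSO, 3 fell, where 6.7% of all genes tested did: ITGB7, CCND2 and CCR1 (-0.55).

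ITGB7 encodes the integrin beta 7 chain, which pairs with alpha 4 or alpha E and binds MADCAM1 or E-cadherin. It lies on chromosome 12 (chr12:53191323-53207282, minus strand). ITGB7 was at 460, 432 and 466 TPM in DMSO and at 1406, 1446 and 1501 TPM with MS023. In isgCtrl it was at 96.9, 100.8 and 94.6 TPM and in PRMT1-KO at 127.7, 125.2 and 124.7 TPM. The 4 groups did not overlap and had the same order as for CCND2: MS023, DMSO, PRMT1-KO and isgCtrl.

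ITGB7 rose 3.21-fold by mean TPM with MS023, from 453 ± 18.2 to 1451 ± 47.6 TPM (SD, n = 3 each), or on the log2 scale 1.68 with a 95% interval of 1.52 to 1.84 (limma, Benjamini-Hochberg adjusted p = 5.6e-05). The PRMT1-KO level was 1.29-fold that of isgCtrl, with a log2 difference of 0.37 and an interval of 0.25 to 0.49 (limma, Benjamini-Hochberg adjusted p = 0.0403). This adjusted p is under 0.05 and the change is under the fold threshold of 0.48, so ITGB7 was not called. An adjusted p under 0.05 was reached by 1.28% of the genes tested. Leaving out any 1 of the 6 samples gave ITGB7 an adjusted p of 0.113 to 0.135 (limma with Benjamini-Hochberg adjustment).

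The largest difference of ITGB7 was between the control groups. Its level in isgCtrl was 21.5% of that in DMSO, a log2 difference of -2.20 with an interval of -2.35 to -2.06 (limma, Benjamini-Hochberg adjusted p = 4.4e-05). In this comparison Cas9, the guide vector, selection and doxycycline against DMSO cannot be told apart. Some plasma cell markers differed between the same groups. With MS023, 6 of 10 rose and 1, CD38, fell, where 11.6% and 19.3% of all genes tested did. The summed level of the 10 was 5545 to 5795 TPM in DMSO samples and 11770 to 12130 TPM in MS023 samples.

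In isgCtrl samples the sum of the plasma cell markers was 2766 to 2836 TPM, and in PRMT1-KO samples it was 2980 to 3168 TPM. Against DMSO, 4 of the 10 markers fell in isgCtrl, 1, IRF4, rose (0.72), and 5 were not called. Of all genes tested, 6.7% were called lower and 7.23% higher. JCHAIN, the joining chain of secreted immunoglobulin, carried most of the sum: it was 4836 ± 117 TPM in DMSO, 10536 ± 184 TPM with MS023, 1972 ± 32.2 TPM in isgCtrl and 2239 ± 106 TPM in PRMT1-KO (SD, n = 3 each). MZB1, a chaperone of immunoglobulin folding, went from 105 ± 2.16 TPM in DMSO to 2.01 ± 0.375 TPM in isgCtrl (SD, n = 3 each), a log2 difference of -5.15. SLAMF7, a surface receptor of plasma cells, was at 9.32 ± 0.652 TPM in DMSO, 52.2 ± 3.59 TPM with MS023 and 0.369 ± 0.195 TPM in isgCtrl (SD, n = 3 each). In isgCtrl against DMSO it passed the filter only through its DMSO level, which favours a lower call. SLAMF7 is thus no support for the count of markers that fell there. The part of these markers' changes in the levels of ITGB7 and CCND2 was not tested.

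The integrin partners and ligands of ITGB7 were called in both directions with MS023. ITGA4, the alpha 4 chain, fell from 28.0 ± 1.59 to 12.7 ± 2.11 TPM with MS023 (SD, n = 3 each), a log2 change of -1.10. ITGAE, the alpha E chain, was at 110.2 ± 3.53 and 91.7 ± 5.53 TPM (SD, n = 3 each) and was not called (log2 difference -0.26, limma, Benjamini-Hochberg adjusted p = 0.0246). ITGB1, the beta chain that competes for alpha 4, was the other of the 5 tested genes that was not called, with a log2 difference of -0.25. FN1, fibronectin, rose by 1.77. CDH1, E-cadherin, rose by 1.21 from 0.389 to 2.23 TPM (means, n = 3 each) and passed the filter only through its MS023 level. Of the 4 tested in PRMT1-KO 0 were called, and 0 had an unadjusted p under 0.05 in limma. FN1 in isgCtrl was 5.81 ± 4.39 TPM (SD, n = 3), a spread nearly as large as the mean.

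NUAK1 encodes an AMPK-related kinase and lies on chromosome 12 (chr12:106063345-106138954, minus strand). NUAK1 was low, at 2.61 to 3.85 TPM in DMSO, 2.68 to 3.30 TPM with MS023, 2.91 to 3.54 TPM in isgCtrl and 2.88 to 3.06 TPM in PRMT1-KO. Each group overlapped every other. The log2 difference was -0.03 with MS023 (95% interval -0.37 to 0.31, limma, Benjamini-Hochberg adjusted p = 0.857), and its sign was the other way under median-ratio scaling and quantile normalization, at 0.055 and 0.026. In PRMT1-KO it was -0.07 (interval -0.24 to 0.10, limma, Benjamini-Hochberg adjusted p = 0.611).

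Of 11 genes listed for the NUAK kinases, their activators and substrate, 2 rose and 1 fell with MS023, where 11.6% and 19.3% of all genes tested did. NUAK2, the closest relative of NUAK1, rose by 0.75 from 0.470 ± 0.088 to 1.48 ± 0.060 TPM (SD, n = 3 each) and passed the filter only through its MS023 level. This favours a higher call, so NUAK2 is no support for the count. SIK1 (0.66) rose and SIK2 (-0.64) fell. Of the 10 tested in PRMT1-KO 0 were called, and 1 had an unadjusted p under 0.05 in limma, where 18.6% of all genes tested had. Against DMSO, STRADB was 0.54 higher in isgCtrl, and it was below the fold threshold under both rescalings.

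Sequence before the start of the members was searched for letters that MAF and MYC proteins bind. RefSeq promoters (GRCh38.p14, 250 bases before each RefSeq start) were at hand for 6 of the 9 members. These were CCND3, MAF, NSD2, FGFR3, ITGB7 and NUAK1, with 3 entries for CCND3 and 8 in all. Searched on both strands were TGCTGA, an arm of the palindrome that MAF proteins bind, the whole palindrome (TGCTGA, then 1 or 2 bases, then TCAGCA), and the E box CACGTG that MYC and its partner MAX bind. TGCTGA is also found inside every match to the whole palindrome. The promoters of MAF and ITGB7 are shown because MAF is the rearranged gene of this line and ITGB7, a gene linked to it, was called with MS023 and MAF was not. Capitals mark a match to TGCTGA on either strand.
MAF: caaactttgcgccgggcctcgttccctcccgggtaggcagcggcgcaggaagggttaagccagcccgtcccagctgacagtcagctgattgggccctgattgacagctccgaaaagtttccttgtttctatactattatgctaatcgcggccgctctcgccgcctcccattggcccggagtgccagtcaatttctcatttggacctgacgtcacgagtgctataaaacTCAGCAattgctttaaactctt
ITGB7: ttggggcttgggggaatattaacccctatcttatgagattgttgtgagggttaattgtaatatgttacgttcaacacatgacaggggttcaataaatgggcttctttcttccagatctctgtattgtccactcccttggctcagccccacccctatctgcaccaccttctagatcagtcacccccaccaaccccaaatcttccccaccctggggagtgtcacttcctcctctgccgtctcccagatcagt
The MAF sequence covers chr16:79600738-79600987 and the ITGB7 sequence chr12:53207252-53207501, each on the minus strand and written 5′ to 3′, with 54.4% and 49.6% of G and C. The MAF promoter held 1 match, read as TCAGCA on the gene's strand, whose first base is at position -22 from the start. The ITGB7 promoter held 0 matches. Its last bases lie inside the gene as positioned above, where the GENCODE start is at 53207282, since the RefSeq start differs. Over the 8 entries of the members, TGCTGA was found in 2, the promoter of MAF and 1 of the entries of CCND3 (position -131), where 14% of 35116 RefSeq promoters of the same length held it. The E box and the whole palindrome were found in 0 of the 8 entries, where 6.34% and 0.0057% of all promoters held them. A match is a description of letters and not of a bound site, and other regulatory sequence of these genes was not searched.

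MYC, the transcription factor that heterodimerizes with MAX at E boxes, lies on chromosome 8 (chr8:127735434-127742951, plus strand). MYC was at 223, 206 and 224 TPM in DMSO and at 236.5, 237 and 246 TPM with MS023. In isgCtrl it was at 397, 413 and 379 TPM and in PRMT1-KO at 356, 369 and 352 TPM. All 4 groups were separate, with isgCtrl highest, then PRMT1-KO, then MS023, then DMSO.

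The rise of MYC with MS023 was small: the mean was 1.10-fold that of DMSO, a log2 difference of 0.14 with a 95% interval of -0.02 to 0.30 that was not called (limma, Benjamini-Hochberg adjusted p = 0.126). Under median-ratio scaling it was 0.26 (Benjamini-Hochberg adjusted p = 0.0154, limma), also under the fold threshold. In PRMT1-KO the MYC level was 90.6% of isgCtrl, a log2 difference of -0.14 with an interval of -0.28 to -0.01 (limma, Benjamini-Hochberg adjusted p = 0.254). The difference between the control groups was larger: MYC was 1.82-fold higher in isgCtrl than in DMSO (log2 difference 0.86, interval 0.70 to 1.02, limma, Benjamini-Hochberg adjusted p = 8.3e-04).

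Of 10 partners and antagonists of MYC tested with MS023, MLXIP rose (0.60) and MXD3 fell (-0.72), where 11.6% and 19.3% of all genes tested did. MXD3, a repressor that competes for MAX, went from 18.3 ± 0.342 to 10.8 ± 1.55 TPM (SD, n = 3 each). MXD3 was also lower in isgCtrl than in DMSO (-0.95), where MNT, another such repressor, was higher (0.58). Of 15 MYC target genes tested with MS023, 0 rose and 3 fell, where 11.6% and 19.3% of all genes tested did. The median log2 fold change of the 15 was -0.18 against -0.11 over all genes. The 3 that fell were NOP56 (-0.90), a core protein of box C/D small nucleolar ribonucleoproteins, POLR3G (-0.72), a subunit of RNA polymerase III, and WDR43 (-0.55), a ribosome biogenesis factor. Under median-ratio scaling 1 of the 15 rose and 2 fell. In isgCtrl against DMSO, MYBBP1A (0.55) and RRS1 (0.52) were higher of 16 tested, and under both rescalings 0 of the 16 were called. In PRMT1-KO 0 of 9 partners and 0 of 16 targets were called. In limma 1 and 5 had an unadjusted p under 0.05, where 18.6% of all genes tested had.

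NSD2 and FGFR3 are neighbours on chromosome 4 and are activated together by the same translocation. NSD2 (chr4:1871393-1982207, plus strand) encodes a methyltransferase that places H3K36me2, and FGFR3 (chr4:1793293-1808872, plus strand) a receptor tyrosine kinase. NSD2 was at 36, 42.2 and 39.9 TPM in DMSO and at 19.5, 21.0 and 19.8 TPM with MS023. In isgCtrl it was at 41.0, 43.2 and 42.9 TPM and in PRMT1-KO at 37.2, 37.6 and 36.2 TPM. The MS023 samples lay below all others, PRMT1-KO lay below isgCtrl, and the DMSO samples overlapped both knockout arm groups.

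With MS023 the NSD2 level was 51.1% of that in DMSO, a log2 fold change of -0.93 with a 95% interval of -1.13 to -0.74 (limma, Benjamini-Hochberg adjusted p = 4.0e-04). NSD2 was the member called lower. In PRMT1-KO it was 87.4% of isgCtrl, a log2 difference of -0.19 with an interval of -0.31 to -0.07 that was not called (limma, Benjamini-Hochberg adjusted p = 0.140). The difference of isgCtrl from DMSO was 0.11 (limma, Benjamini-Hochberg adjusted p = 0.301).

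FGFR3 was nearly absent and was under the filter in all groups, so it was not tested. It was listed at 0.136, 0.0323 and 0.0068 TPM in DMSO and at 0.0966, 0.0531 and 0.0451 TPM with MS023. Of the 6 knockout arm samples, 4 listed it at 0, and the others had 0.00964 TPM (isgCtrl replicate 1) and 0.0125 TPM (PRMT1-KO replicate 3). The level of NSD2 was thus far above that of its neighbour in every sample. Of 10 FGF receptor and signal genes tested with MS023, ETV4 (-0.57) and SPRY2 (-0.53) fell, where 19.3% of all genes tested were called lower. Under both rescalings 0 of the 10 were called. Of the 11 tested in PRMT1-KO 0 were called and 4 had an unadjusted p under 0.05 in limma, where 18.6% of all genes tested had. In isgCtrl against DMSO, ETV4 (0.91), FGFR1 (0.70), DUSP6 (0.68) and SPRY4 (0.51) were higher and FRS2 (-0.53) was lower, and SPRY4 and FRS2 were each not called under one of the rescalings.

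Of 11 H3K36 methyltransferases and demethylases, 0 rose and 3 fell with MS023, where 19.3% of all genes tested were called lower, and under both rescalings 2 fell. Their median log2 fold change was -0.28 against -0.11 over all genes. SETMAR (-1.48) went from 29.3 ± 0.877 to 9.90 ± 0.552 TPM and NSD1 (-0.87), of the same family as NSD2, from 9.35 ± 0.666 to 4.70 ± 0.646 TPM (SD, n = 3 each). KDM2B, an H3K36 demethylase, fell by 0.55 and was at -0.44 and -0.40 under the rescalings, below the fold threshold. In PRMT1-KO 0 of 11 were called and 1 had an unadjusted p under 0.05 in limma, where 18.6% of all genes tested had. In isgCtrl against DMSO KDM2B was higher (0.57).

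Genes that flank the translocation genes were called in both directions with MS023. Of 20 such neighbours 15 were tested, 2 rose and 2 fell, where 11.6% and 19.3% of all genes tested did. Under median-ratio scaling and quantile normalization LTO1 was also called higher, at 0.64 and 0.68. Near FGFR3 and NSD2, SLBP (1.19), which binds the stem-loop of histone mRNAs, rose from 100.1 ± 0.900 to 229 ± 3.00 TPM, and TACC3 (-0.85), a spindle protein, fell from 62.5 ± 4.90 to 34.2 ± 1.25 TPM (SD, n = 3 each). MYEOV, near CCND1, rose from 3.07 ± 0.745 to 8.17 ± 0.750 TPM (log2 fold change 1.18), and WWOX, near MAF, fell from 20.7 ± 3.36 to 11.8 ± 1.01 TPM (-0.76; SD, n = 3 each). In isgCtrl MYEOV was at 0.159 ± 0.205 TPM (SD, n = 3), a log2 difference of -1.81 from DMSO, and it passed the filter there only through DMSO. CDYL2 (0.71) and BYSL (0.52) were higher in isgCtrl, and BYSL was below the fold threshold under both rescalings. Of the 14 neighbours tested in PRMT1-KO 0 were called, and 3 had an unadjusted p under 0.05 in limma, where 18.6% of all genes tested had.

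**Figure D3:**
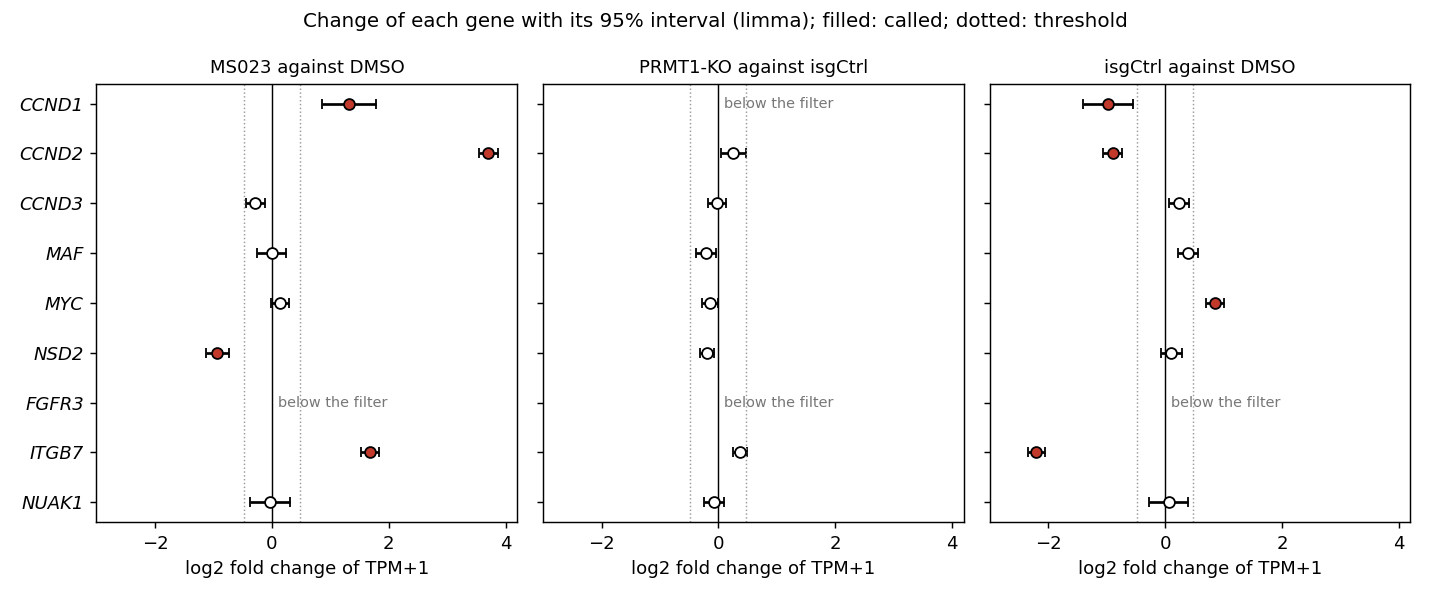
Difference in log2(TPM+1) of each member for MS023 against DMSO, PRMT1-KO against isgCtrl and isgCtrl against DMSO (points), with its 95% interval from limma (lines) and the fold threshold of 0.48 on either side (dotted), filled where called and open where not. CCND2 has the largest rise with MS023, at 3.71, and ITGB7 the largest fall in isgCtrl against DMSO, at -2.20, while all PRMT1-KO points are open, with CCND1 and FGFR3 below the filter.

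The response to MS023 and to the PRMT1 guide was then compared gene by gene, by testing the MS023 difference minus the PRMT1-KO difference over all 12 samples. Of 8 members tested 6 had an adjusted p under 0.05 (limma with Benjamini-Hochberg adjustment), where 35.6% of all 13256 genes tested had, 14.4% higher and 21.2% lower for MS023. CCND2 differed by 3.45 (adjusted p = 1.3e-07), ITGB7 by 1.31 (adjusted p = 1.4e-06) and CCND1 by 1.31 (adjusted p = 0.00332), each higher for MS023 in the same limma fit with Benjamini-Hochberg adjustment. CCND1 was under the filter in isgCtrl and PRMT1-KO and entered this fit only through DMSO and MS023, so its PRMT1-KO difference lies at the floor. With a pseudocount of 0.1 its adjusted p was 0.0518 (limma, Benjamini-Hochberg). MYC also differed in this direction, by 0.28 (limma, Benjamini-Hochberg adjusted p = 0.0176). NSD2 differed by -0.74 (limma, Benjamini-Hochberg adjusted p = 1.6e-04) and CCND3 by -0.25 (limma, Benjamini-Hochberg adjusted p = 0.0447). The difference of CCND3 was no longer past 0.05 under median-ratio scaling, quantile normalization or without the filter (limma, Benjamini-Hochberg adjusted p = 0.240, 0.184 and 0.0502). MAF differed by 0.22 and NUAK1 by 0.04, and neither passed the test (limma, Benjamini-Hochberg adjusted p = 0.197 and 0.870). Under median-ratio scaling MAF differed by 0.32 (limma, Benjamini-Hochberg adjusted p = 0.0353). PRMT1 mRNA itself was at 35.4% of isgCtrl in PRMT1-KO cells and at 673 ± 23.6 TPM with MS023 against 653 ± 18.3 TPM in DMSO (SD, n = 3 each).

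In the PRMT1-KO comparison some members were separate from isgCtrl and were not called. Of the 7 members tested, 5 had an unadjusted p under 0.05 in limma, where 18.6% of all genes tested had. They were CCND2 and ITGB7, with higher means, and MAF, MYC and NSD2, with lower means. In these 5 the PRMT1-KO and isgCtrl samples did not overlap, which held for 26.7% of all genes tested (9.11% higher and 17.6% lower). With MS023, 6 of 8 members did not overlap, where 59.5% of all genes tested did not.

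The control groups differed for several members. Of 8 tested in isgCtrl against DMSO, 4 were called, where 13.9% of all 12661 genes tested were: MYC higher, as were 7.23% of all genes, and ITGB7, CCND1 and CCND2 lower, as were 6.7%. CCND1 passed the filter only through its DMSO level, which favours a lower call, so it is no support for the count. For 6 of the 8 the groups did not overlap, which held for 51.7% of all genes. This comparison shares its DMSO samples with the MS023 comparison and its isgCtrl samples with the PRMT1-KO comparison, so the signs are not independent. Set side by side, the log2 differences for isgCtrl, MS023 and PRMT1-KO were -0.90, 3.71 and 0.26 for CCND2. For ITGB7 they were -2.20, 1.68 and 0.37, and for MYC 0.86, 0.14 and -0.14. For MAF they were 0.39, -0.002 and -0.22, and for NSD2 0.11, -0.93 and -0.19.

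The scale of the samples bears on the smaller of these values. Over all genes tested the median log2 fold change was -0.11 with MS023, -0.04 in PRMT1-KO and 0.07 in isgCtrl against DMSO. Median-ratio scaling moved the MS023 median by 0.11, to -0.004. Under this scaling CCND2 (3.83), ITGB7 (1.80), CCND1 (1.41) and NSD2 (-0.82) were called with MS023 as before. Of the members that were not called, MAF and NUAK1 had the other sign with MS023 under this scaling, while CCND3 (-0.17) and MYC (0.26) did not.

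Last, the genes whose levels were most like each member over the 12 samples were found, by Pearson's r of log2(TPM+1) among the other 13255 genes. The samples fall into 4 groups, so a high r mostly says that the group means have the same order and spacing, and r is given as a description. For CCND2 they were DUSP5, a nuclear phosphatase of ERK, SQSTM1, the autophagy receptor p62, and INSIG1, a regulator of sterol synthesis, with r of 0.997 to 0.998. For ITGB7 they were PPIB, JCHAIN and LGALS1, with r of 0.998 to 0.999. PPIB is a peptidyl-prolyl isomerase of the endoplasmic reticulum and JCHAIN is a plasma cell marker. For NSD2 they were PITPNC1, NOP56 and C7orf50 (0.991 to 0.993), and for MYC they were RPL8, DHX37 and DCTN1 (0.987 to 0.991).

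CCND1 was most like SPRR2A, GLRX and MYL12A (0.984 to 0.990), and CCND3 was most like SLC25A15, BLMH and SLC9A3 (0.978 to 0.980). MAF was most like SIRT5, ZNF783 and DDX23 (0.938 to 0.956). NUAK1, whose groups overlap, was most like SLC30A5, ZSWIM4 and LYSMD4 (0.826 to 0.901). Between members, r ran from -0.971 for CCND2 with NSD2 to 0.968 for CCND1 with ITGB7. For MAF it ran from -0.745 with ITGB7 to 0.844 with MYC.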

How the data were processed

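The authors sequenced total RNA, trimmed reads with Trimmomatic after FastQC, used STAR for alignment (hg38, GENCODE V35) and Salmon for quantification. They deposited gene-level log2(TPM+1) values, which were used as they stand, and TPM were obtained by undoing the transformation. The paper states a minimum number of read pairs per sample, but TPM hold no read counts. The precision that counts give each gene is therefore unknown here, and no count model was used.

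Groups came from the sample labels. Genes whose log2(TPM+1) averaged more than 1 in a group of the fit were tested in limma 3.58.1 (R 4.3.3) with eBayes without trend and Benjamini-Hochberg adjustment over all genes tested, on the 6 samples compared or on all 12. Called genes had an adjusted p below 0.05 and a log2 fold change over 0.48 in size, the difference between arms an adjusted p under 0.05 alone. Single genes were also tested by two-sided exact permutation. Summaries and figures were made in Python 3.11.15. The code was tested on simulated data. The sample labels do not say whether replicates were separate cultures. The paper speaks of independent experiments and biological replicates in general, without naming these samples. The p therefore measure only the spread between these samples, which may be technical.

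Members, gene lists and tests were chosen with earlier results of these data known. Named are all members, at most 4 called genes of a list by size, genes of counts of 5 or fewer, plasma cell markers, and the 3 genes most like each member. Positions come from GENCODE v44 on GRCh38. Protein sequences were not used here, and neither were promoters of CCND1, CCND2 and MYC. Alternatives were no filter or one in every sample, quantile normalization or median-ratio scaling, 0.1 as pseudocount, a trended eBayes, a fit of all 12 samples, the replicate number as a block, other thresholds and each replicate left out in turn.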

Additional observations from a re-analysis of the deposited data

Results flagged for a closer look

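For 6 of the 8 members tested, the effect of MS023 differed from that of the PRMT1 guide by a test of the difference itself in limma over all 12 samples. On the log2 scale, the MS023 effect minus the PRMT1-KO effect was 3.45 for CCND2, 1.31 for ITGB7, 1.31 for CCND1 and 0.28 for MYC. It was -0.74 for NSD2 and -0.25 for CCND3. A difference with an adjusted p under 0.05 was found for 35.6% of all genes tested. CCND1 was under the filter on low values in both knockout arm groups and entered the fit only through DMSO and MS023, and with a pseudocount of 0.1 its difference was no longer past the threshold (limma, Benjamini-Hochberg adjusted p = 0.0518). CCND3 was no longer past it in 12 of 19 alternatives, with an adjusted p of up to 0.240 (limma, Benjamini-Hochberg).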

How the results depend on the processing

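With MS023, the calls of CCND2, ITGB7, CCND1 and NSD2 were kept whichever replicate was left out, as were the 4 calls in isgCtrl against DMSO. NSD2 was under the threshold where an absolute log2 fold change above 1 was asked. Over all genes, calls with MS023 were 3986, and 6300 with no fold threshold, 1083 above 1 and 3707 to 3978 with a replicate left out. In PRMT1-KO they were 96, and 46 with no filter, 157 with no fold threshold, 9 above 1, 365 at a Benjamini-Hochberg adjusted p under 0.25 in limma, and 2 to 21 with any 1 of the 6 samples left out. In isgCtrl against DMSO they were 1763, and 4373 with no fold threshold, 369 above 1 and 1618 to 1858 with a replicate left out. The difference between the arms had 4719, and 4165 to 4600 with a replicate left out. Members called in PRMT1-KO went from 0 to 1, ITGB7, with no fold threshold, and in isgCtrl against DMSO from 4 to 1, ITGB7, above 1. Calls lower were 62.4% with MS023, 46.9% in PRMT1-KO and 48.1% in isgCtrl against DMSO. Under median-ratio scaling they were 48.9%, 31.2% and 65.5%, and under quantile normalization 50%, 30.8% and 52.9%.

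Signs turned for members near 0. With MS023, MAF was at 0.117 under median-ratio scaling, 0.096 under quantile normalization and -0.086 to 0.054 with a replicate left out, and NUAK1 at 0.055, 0.026 and -0.11 to 0.11. In PRMT1-KO, CCND3 was at 0.0081 and 0.0056, and -0.082 to 0.0047 with a replicate left out. NUAK1 was at -0.0054 to 0.21 in isgCtrl against DMSO and at -0.033 to 0.18 for the difference between the arms. CCND3 lost its difference between the arms in 9 of 12 fits with a sample left out (Benjamini-Hochberg adjusted p up to 0.0967 in limma), all but those without DMSO replicate 3, isgCtrl replicate 1 or MS023 replicate 1. CCND1 lost it with a pseudocount of 0.1 (1.64, Benjamini-Hochberg adjusted p = 0.0518, limma), where its rise with MS023 was 1.71. The cause of these was not tested.

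In the labels, replicates share only a number. With the replicate number as a block, limma called 4018 genes with MS023, 1584 in isgCtrl against DMSO and 4624 for the difference between the arms, and 0 in PRMT1-KO, where 2054 genes had an unadjusted p under 0.05. Members called were 4, 4, 6 and 0. The adjusted p of ITGB7 in PRMT1-KO was then 0.176 (limma with Benjamini-Hochberg adjustment). Deviations of same-numbered samples from their group means had a mean r of 0.0655 (0.0213 to 0.102) for MS023 and DMSO. For samples of these groups with other numbers it was -0.0327. Same-numbered samples had a mean r of -0.0474 for PRMT1-KO and isgCtrl and -0.102 for isgCtrl and DMSO, against 0.0239 and 0.0511 for other numbers. The values are small, and whether same-numbered DMSO and MS023 samples belong together is not known. TPM hold no read counts per gene, which leaves the precision of CCND1, NUAK1 and FGFR3, the low members, unknown.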
